A study of Mus musculus with 12 samples.

Results

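The phagocyte NADPH oxidase was followed through 6 of its genes: Cybb and Cyba, which encode the membrane-bound subunits, Ncf1 and Ncf4, which encode cytosolic organiser subunits, and Rac1 and Rac2, which encode the small GTPases that switch the enzyme on. The members were the probe sets that the platform annotation assigns to exactly 1 of these symbols. They numbered 13 of 45037 probe sets that are not controls, namely 3 each for Cybb, Ncf1 and Rac1, 2 for Rac2 and 1 each for Cyba and Ncf4. Each gene was represented by its brightest probe set, among 18193 genes treated the same way. Expression had been measured on single-colour Affymetrix mouse arrays in KSL cells, the bone marrow fraction sorted as c-Kit-positive, Sca-1-positive and lineage-negative, which holds blood stem cells and early progenitors. The 12 arrays formed 4 groups of 3. The groups were cells labelled Fancc-/- with tumour necrosis factor alpha (TNF, 10 ng/ml for 24 h), cells labelled Fancc-/- without TNF, wild-type cells with TNF, and wild-type cells without TNF. Mice were 2 to 4 months old. Medium of every group, with or without TNF, held 10% serum and 4 growth factors: stem cell factor and IL-11 at 10 ng/ml each, IL-6 at 20 ng/ml, and the ligand of Flt3 at 50 ng/ml. The untreated arrays thus stand for cells kept in cytokines and not for fresh ones. The sources used here do not say whether replicates came from separate mice, so each p-value is set against the spread among these arrays, part of which may be technical.

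The oxidase moves electrons from NADPH across a membrane onto oxygen and so makes superoxide, the source of the respiratory burst with which neutrophils and macrophages kill microbes. At rest its parts are kept apart: gp91phox (Cybb) and p22phox (Cyba) sit in the membrane as cytochrome b558, while p47phox (Ncf1) and p40phox (Ncf4) wait in the cytosol and join it with GTP-bound Rac when the cell is stimulated. Loss of the core subunits causes chronic granulomatous disease. Priming by TNF is well known in neutrophils, and Fancc-deficient progenitors are known for their sensitivity to this cytokine.

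Arrays labelled mutant read 8.73 to 9.16 for Fancc, against 8.22 to 8.65 on the wild-type arrays (log2). This reading of the targeted gene was thus not lower but higher on every array labelled mutant. By itself it does not bear out the label, and genotype is given as labelled. It is unknown here if this probe set covers the disrupted exons, and a probe set elsewhere in the gene checks nothing. Among progenitor markers, Kit read 9.95 to 10.77, Cd34 12.81 to 13.13 and Flt3 11.44 to 12.15 over all arrays, whereas Slamf1 stayed at 3.33 to 4.51, near the floor. The Sca-1 gene was not analysed here. The inactive-X transcript Xist read only 5.06 to 5.47 on 3 arrays, all without TNF (labelled mutant replicate 1 and wild-type replicates 1 and 2), and read at least 12.04 on the other 9. The Y-linked Eif2s3y read 4.16 on labelled mutant replicate 2 without TNF and 3.79 on wild-type replicate 3 with TNF, and read at least 10.46 on the other arrays. Both transcripts gave signal on 7 arrays. The arrays with low Xist all lacked TNF, and Cybb lies on the X chromosome, so Cybb is also given without them and with both transcripts as covariates.

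Both genes of the membrane cytochrome rose with TNF, and none of the other 4 passed in either direction. Averaged over genotype, Cybb was 4.02-fold higher with TNF (log2 change 2.01, SE 0.28, 6 arrays with TNF against 6 without) and Cyba 1.90-fold higher (log2 change 0.93, SE 0.13), with limma adjusted p = 0.000847 and 0.000905 over all genes. Thus 2 of 6 members rose and 0 fell, where 5.81% of all genes rose in the same fit. The medians of the log2 changes were 0.06 over the 6 members and -0.03 over all genes. Both genes came early in the order of all 18193 log2 changes from the highest down, Cybb at place 80 and Cyba at place 337.

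**Figure D1:**
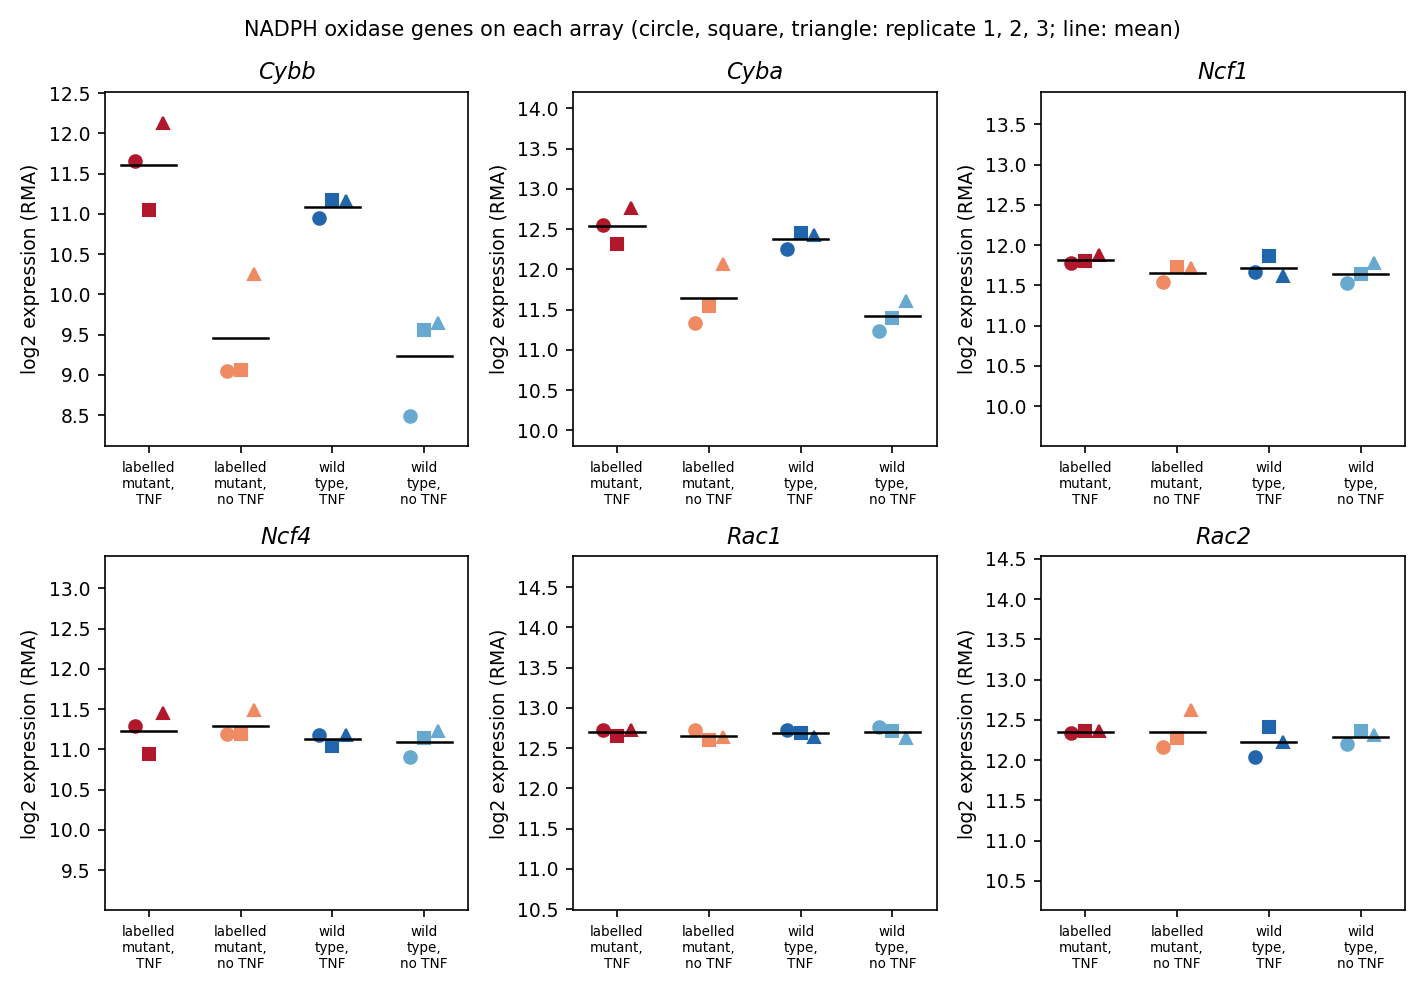
Log2 expression (RMA, y axis) of the representative probe set of each gene on each array, by group (x axis), with a line at the mean of the 3 arrays; each panel spans the same number of log2 units. Cybb and Cyba stand higher on every TNF array than on any array of the same genotype without TNF, while Ncf1, Ncf4, Rac1 and Rac2 stay nearly level.

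Cybb encodes gp91phox, the subunit that carries the electrons. It read 11.65, 11.05 and 12.13 on the TNF-treated arrays labelled mutant, against 9.05, 9.06 and 10.25 on the untreated ones (replicates 1 to 3, log2). In wild type it read 10.94, 11.17 and 11.16 with TNF, against 8.49, 9.56 and 9.64 without. The treated arrays were higher without overlap in both genotypes, as they were for 10.4% of all genes on the arrays labelled mutant and 8.87% in wild type. Untreated replicate 3 of the arrays labelled mutant was the highest and untreated wild-type replicate 1 the lowest of the 6 untreated arrays. On the 3 untreated arrays that had Xist signal Cybb read 9.06, 10.25 and 9.64, still below all 6 treated arrays.

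The rise of Cybb was 4.46-fold on the arrays labelled mutant (log2 change 2.16, SE 0.39, limma adjusted p = 0.0106) and 3.63-fold in wild type (1.86, SE 0.39, adjusted p = 0.0208). In these fits 2.45% and 2.69% of all genes rose. The wild-type call was lost without untreated replicate 1 (adjusted p = 0.0558), treated replicate 2 (0.0649) or treated replicate 3 (0.0754), and both calls were lost with Xist and Eif2s3y levels as covariates, at adjusted p = 0.0795 on the arrays labelled mutant and 0.149 in wild type. The log2 change of Cybb with these covariates was 1.77 on the arrays labelled mutant and 1.52 in wild type, and without those 3 wild-type arrays in turn it was 1.49, 1.82 and 1.82. Across 22 alternatives, adjusted p lay between 0.00153 and 0.0795 on the arrays labelled mutant and between 0.00897 and 0.149 in wild type, while the average over genotype passed under each of its 21 (from 0.000226 to 0.0252).

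Cyba encodes p22phox, the partner that stabilises gp91phox and provides the docking site for p47phox. It read 12.55, 12.31 and 12.77 with TNF and 11.34, 11.54 and 12.07 without on the arrays labelled mutant. On the wild-type arrays it read 12.25, 12.45 and 12.43 with TNF and 11.24, 11.40 and 11.61 without. Here too the treated arrays stood above the untreated ones in each genotype without overlap, and untreated replicate 3 of the arrays labelled mutant again came closest to the treated values.

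Cyba rose 1.86-fold on the arrays labelled mutant (log2 change 0.89, SE 0.18, limma adjusted p = 0.0191) and 1.94-fold in wild type (0.96, SE 0.18, adjusted p = 0.0127). On the arrays labelled mutant the call was lost when only those 6 arrays were fitted (adjusted p = 0.073) and when any of 4 arrays was left out (untreated replicate 1, 0.0647, untreated replicate 2, 0.0787, treated replicate 1, 0.0562, treated replicate 3, 0.0751), with a range of 0.00442 to 0.103 over all alternatives. The log2 change of Cyba was 0.89 in the fit of 6 arrays and 0.74, 0.84, 0.89 and 0.78 without these 4 arrays in turn. The wild-type call was lost without treated replicate 3 (0.0533) and ranged from 0.00354 to 0.109, the upper ends of both ranges coming from the Xist and Eif2s3y covariates, where the changes were 0.69 on the arrays labelled mutant and 0.73 in wild type; the average over genotype passed under all 21 (from 0.000208 to 0.0234).

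The 250 bases before the start sites are shown for Cybb and Cyba, whose mRNA rose, and for Ncf1, the organiser gene that did not pass, because these 3 of the 6 members had an entry among the RefSeq promoters (GRCm38.p6). They lie at chrX:9469325-9469574, chr8:122432941-122433190 and chr5:134229626-134229875, all on the minus strand, and are written 5′ to 3′ in the direction of transcription, with matches to the motifs searched in capitals.
Cybb: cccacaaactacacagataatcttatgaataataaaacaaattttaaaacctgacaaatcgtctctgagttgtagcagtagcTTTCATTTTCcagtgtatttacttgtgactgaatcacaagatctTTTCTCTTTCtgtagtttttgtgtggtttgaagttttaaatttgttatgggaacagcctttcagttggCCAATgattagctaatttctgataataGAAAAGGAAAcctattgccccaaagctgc
Cyba: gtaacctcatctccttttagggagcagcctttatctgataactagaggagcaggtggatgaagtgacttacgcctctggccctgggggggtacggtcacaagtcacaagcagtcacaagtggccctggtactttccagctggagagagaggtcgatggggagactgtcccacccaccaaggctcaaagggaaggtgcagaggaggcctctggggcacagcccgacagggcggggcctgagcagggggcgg
Ncf1: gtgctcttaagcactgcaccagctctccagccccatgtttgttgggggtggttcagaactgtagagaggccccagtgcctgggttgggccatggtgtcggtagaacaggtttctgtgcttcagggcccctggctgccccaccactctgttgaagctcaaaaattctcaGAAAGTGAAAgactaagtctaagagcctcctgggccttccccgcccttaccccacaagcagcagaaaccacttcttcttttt
The motifs, searched on both strands over 300 bases that include the first 50 transcribed ones, were the interferon regulatory factor element (GAAA, any 2 bases, GAAA), the CCAAT box, the ETS core GAGGAA read by PU.1, and the NF-kB consensus. They were chosen with these sequences in view. The Cybb window held 3 interferon regulatory factor elements, at -168 to -159, -124 to -115 and -29 to -20 from the start site, and Ncf1 held 1 at -82 to -73. Of all 32851 promoter windows, 3.44% held that element. Cybb also had a CCAAT box at -56 to -52, a motif found in 37.4% of windows, and an ETS core within its first transcribed bases, a motif found in 28.3%. Cyba held none of the 4 motifs, and none of the 3 windows held an NF-kB match, against 4.51% of all windows. These are matches of letters and not shown to be sites.

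Ncf1 encodes p47phox, the organiser that carries the cytosolic complex to the membrane once phosphorylated. On the arrays labelled mutant it read 11.78, 11.80 and 11.88 with TNF and 11.54, 11.72 and 11.71 without, so the treated arrays stood just above the untreated ones, as for 10.4% of all genes. On the wild-type arrays it read 11.67, 11.86 and 11.62 with TNF and 11.53, 11.64 and 11.78 without, and the groups overlapped. Averaged over genotype the log2 change was 0.11, with a 95% interval from -0.03 to 0.26 (limma adjusted p = 0.315). These values are of the brightest Ncf1 probe set. On the arrays labelled mutant, the treated and untreated values of 1451767_at and 1425609_at overlapped.

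Ncf4 encodes p40phox, which binds the phosphoinositide of phagosome membranes. It read 11.30, 10.95 and 11.45 with TNF and 11.20, 11.19 and 11.49 without on the arrays labelled mutant, and 11.18, 11.04 and 11.18 with TNF and 10.91, 11.14 and 11.23 without in wild type. The groups overlapped in both genotypes, and the log2 change averaged over genotype was -0.01 (95% interval -0.23 to 0.21, limma adjusted p = 0.96).

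Rac2 is the Rac form of blood cells and the one used by the neutrophil oxidase, and Rac1 is expressed in most tissues. Rac2 read 12.34, 12.36 and 12.36 with TNF and 12.16, 12.27 and 12.62 without on the arrays labelled mutant, and 12.04, 12.41 and 12.22 with TNF and 12.20, 12.36 and 12.32 without in wild type. Rac1 stayed within 12.61 and 12.76 on all 12 arrays. The log2 change with TNF averaged -0.03 for Rac2 (95% interval -0.23 to 0.16) and 0.01 for Rac1 (-0.09 to 0.12), with limma adjusted p = 0.856 and 0.901. The intervals of Cybb (1.40 to 2.62) and Cyba (0.64 to 1.21) lay wholly above those of the other 4 genes.

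**Figure D2:**
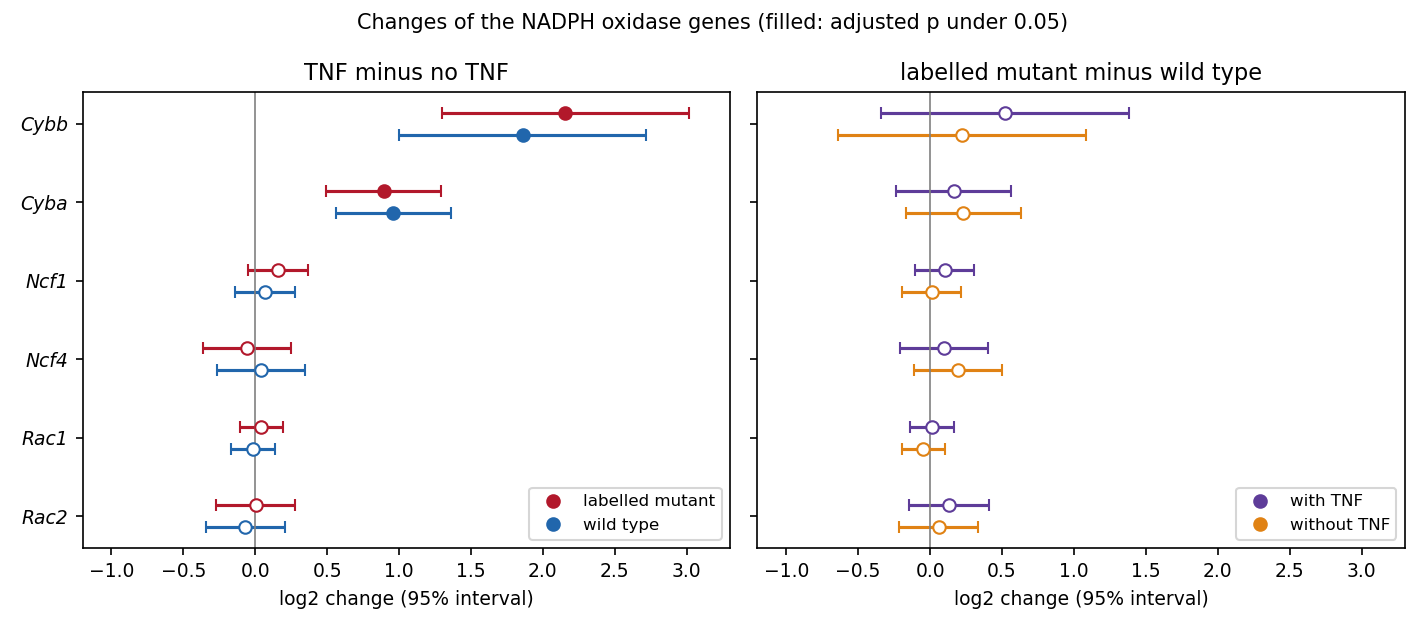
Log2 change (x axis, points with 95% intervals, 3 arrays per group) of each gene for TNF against no TNF in each genotype (left) and for arrays labelled mutant against wild type at each treatment (right). Filled points, which passed at an adjusted p under 0.05, are Cybb and Cyba for TNF, and all points on the right are open.

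Probe sets of the same gene gave the same calls for TNF averaged over genotype. When every probe set was tested as its own feature, all 3 Cybb probe sets and the Cyba probe set rose in the average over genotype, where 3.8% of all probe sets rose. The Cybb probe sets 1436778_at, 1436779_at and 1422978_at changed by 2.01, 1.98 and 2.23 (limma adjusted p = 0.0015, 0.00203 and 0.0112). Of these, 1422978_at did not pass in either genotype alone (adjusted p = 0.0786 on the arrays labelled mutant and 0.138 in wild type), with changes of 2.46 and 1.99, in fits where 1.25% and 1.5% of all probe sets rose. The 9 probe sets of Ncf1, Ncf4, Rac1 and Rac2 changed by between -0.13 and 0.11, and none passed. Signs differed among the probe sets of Ncf1 and among those of Rac1. The Rac1 probe set 1437674_at read 3.19 to 3.64 on all arrays, near the floor, where a change would be compressed.

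**Figure D3:**
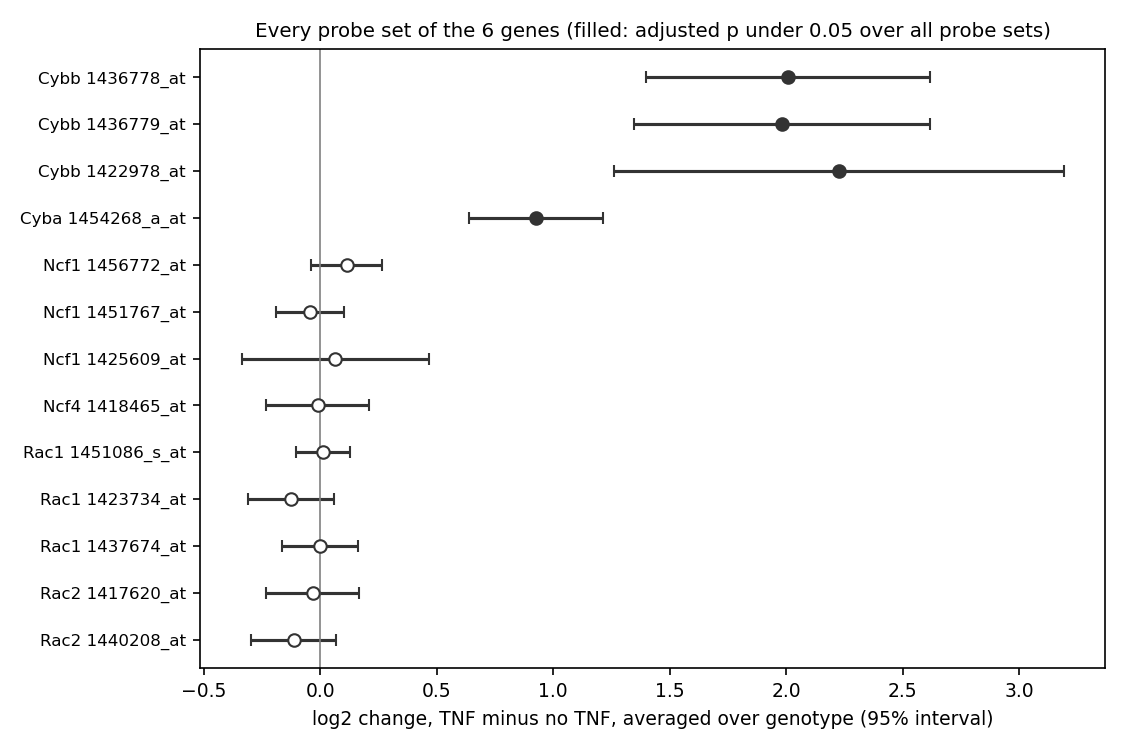
Log2 change with TNF averaged over genotype (x axis, points with 95% intervals, 12 arrays) for each of the 13 probe sets (y axis). The 3 Cybb probe sets lie at 1.98 to 2.23 and Cyba at 0.93 (filled, passed over all probe sets), and the 9 others lie around 0.

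Genotype left no call among the oxidase genes. With TNF the arrays labelled mutant exceeded wild type by 0.52 for Cybb (95% interval -0.34 to 1.38) and by 0.17 for Cyba (-0.24 to 0.57), and without TNF by 0.22 (-0.64 to 1.08) and 0.23 (-0.17 to 0.63) on the log2 scale. The sign of the Cybb difference without TNF turned with array weights (-0.17), without wild-type replicate 1 (-0.15) and without replicate 3 of the arrays labelled mutant (-0.17). The differences of Ncf1, Ncf4, Rac1 and Rac2 lay between -0.05 and 0.20. With TNF, 1 further probe set each of Cybb (1422978_at) and Ncf1 (1451767_at) was higher on the arrays labelled mutant without overlap, as 4.57% of all probe sets were, and neither passed. The representative probe sets of all 6 genes overlapped there. In limma 0 of 6 genes passed with TNF, without TNF or on average over treatment, and 0 had an unadjusted p under 0.05. Of all genes 0.0055%, 0.0055% and 0.022% passed in these 3 fits, and 5.6%, 4.12% and 7.39% had an unadjusted p under 0.05. In the limma fit across all probe sets, 1 of the 13, Ncf1 1451767_at, was under an unadjusted 0.05 with TNF and on average, as 4.96% and 6.3% of all probe sets were. Its log2 difference with TNF was 0.31 (95% interval 0.10 to 0.52), with adjusted p = 0.794 (0.00708 before adjustment). Averaged over treatment its adjusted p = 0.723 (0.0100 before adjustment). Averaged over treatment the arrays labelled mutant were higher by 0.37 for Cybb (-0.24 to 0.98) and 0.20 for Cyba (-0.08 to 0.48). These intervals are wide for Cybb, and a p that misses the threshold does not show equal levels.

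The response to TNF also did not differ detectably between genotypes. The log2 rise on the arrays labelled mutant minus that in wild type was 0.30 for Cybb (95% interval -0.92 to 1.51) and -0.07 for Cyba (-0.63 to 0.50). Single arrays moved the Cybb value widely, between 0.04 without treated replicate 3 and 0.70 without untreated replicate 3 of the arrays labelled mutant. The Cyba value changed sign without treated replicate 2 (0.05) or untreated replicate 3 (0.14) of the arrays labelled mutant, without untreated wild-type replicate 1 (0.02), and with array weights (0.09). No member passed for this difference in limma (0 of 6, adjusted p = 1 for each, 0 with an unadjusted p under 0.05), and neither did any other gene (0%, with 2.9% at an unadjusted p under 0.05). The 2 comparisons of TNF with no TNF share no arrays, but their SEs come from 1 spread pooled over all 12 arrays.

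Genes around the oxidase did not move as a block. Cybc1, whose product is the chaperone that the cytochrome needs to mature, fell by 0.29 on the log2 scale while Cybb and Cyba rose (SE 0.05, limma adjusted p = 0.00395, average over genotype). It read 9.44 to 9.56 and 9.67 to 9.75 on the treated and untreated arrays labelled mutant, and 9.36 to 9.56 and 9.83 to 9.89 on the treated and untreated wild-type arrays. Cybc1 was the 1 gene that fell of 7 measured for other oxidase subunits, relatives and chaperones, and 0 rose, where 6.32% of all genes fell and 5.81% rose in this fit. Nox4, Duox1 and Duoxa2 read at most 4.13 on every array, near the floor. The median log2 change of these genes was -0.03, the same as over all genes.

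Among 13 measured kinases, lipid enzymes and channels that act upstream of the oxidase or beside it, 4 rose and 0 fell averaged over genotype, with a median of 0.26. Of all genes, 5.81% rose and 6.32% fell in the same fit. Taken by genotype, 3 rose on the arrays labelled mutant and 1 in wild type, where 2.45% and 2.69% of all genes rose. Hvcn1, the proton channel that balances the charge moved by the oxidase, rose by 1.13 (2.19-fold, SE 0.19, adjusted p = 0.003). Hvcn1 read 8.81 to 10.02 with TNF and 7.83 to 8.40 without on the arrays labelled mutant, and 9.11 to 9.20 with TNF and 7.83 to 8.39 without in wild type. Prkcd and Prkcb encode protein kinases C that phosphorylate p47phox. Prkcd rose by 1.09 (SE 0.09, adjusted p = 1.85e-05), Prkcb by 1.13 (SE 0.31, adjusted p = 0.0406), and the lipid kinase gene Pik3cg by 0.26 (SE 0.05).

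Receptors that trigger the burst went both ways. Of 11 measured, 2 rose and 4 fell, with a median of -0.23, where 5.81% of all genes rose and 6.32% fell. Fpr2, a receptor for formylated peptides, rose by 4.46 (SE 0.36), to 10.36 to 12.34 on the treated arrays labelled mutant and 10.15 to 11.12 on the treated wild-type arrays, against 6.23 to 7.75 and 6.11 to 6.76 without TNF. Fcgr3 and Fcgr1, receptors for immunoglobulin G, fell by 2.42 (SE 0.33) and 1.62 (SE 0.24), and the leukotriene B4 receptor gene Ltb4r1 fell by 1.35 (SE 0.18). Itgb2 (0.44) and Tlr4 (-0.82) were the other calls, named after their values were seen.

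Regulators of Rac showed smaller changes, with 1 higher and 4 lower of 16 measured and a median of -0.11. Over all genes 5.81% were higher and 6.32% lower. Vav2, an exchange factor that loads Rac with GTP, rose by 0.44 (SE 0.07). Bcr, which encodes a protein with Rac GTPase-activating function, fell by 0.68 (SE 0.07), the exchange factor gene Tiam1 by 0.44 (SE 0.11), Rhog by 0.25 (SE 0.07) and, named after its value was seen, the inhibitor gene Arhgdib by 0.20 (SE 0.05).

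Of 10 measured transcription factors known to act on oxidase genes in myeloid cells, 1 rose and 2 fell, with a median of 0.09. The shares over all genes were 5.81% that rose and 6.32% that fell. Irf8 fell by 1.57 (SE 0.16, adjusted p = 0.000101), Cebpa fell by 0.54 (SE 0.13) and Hoxa10 rose by 0.97 (SE 0.16). Spi1, which encodes PU.1, had a log2 change of 0.01 (SE 0.08) and did not pass (adjusted p = 0.969).

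**Figure D4:**
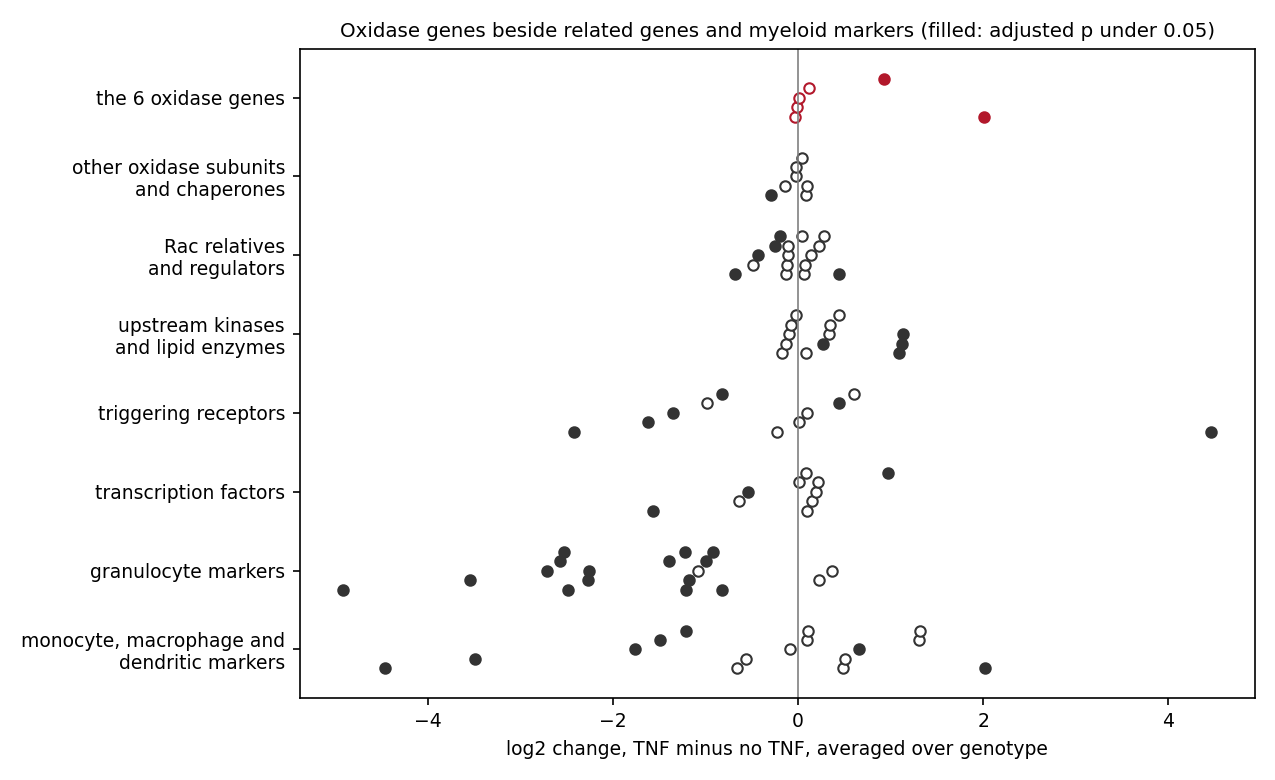
Log2 change with TNF averaged over genotype (x axis) for each measured gene of the lists on the y axis, 1 point per gene, filled where the adjusted p was under 0.05. Cybb and Cyba lie at 2.01 and 0.93 while 15 of 18 granulocyte markers lie on the lower side as filled points.

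Oxidase subunits are abundant in maturing phagocytes, so markers of these cells were set beside Cybb and Cyba. Whether cell types play a part in the rise of these genes was not tested. Of 18 measured granulocyte markers, 15 fell and 0 rose (median -1.31), where 6.32% of all genes fell, and their mean log2 level was 8.16 to 9.23 with TNF and 10.26 to 10.59 without on the arrays labelled mutant, and 7.92 to 8.47 and 9.79 to 10.28 in wild type. Elane (-3.54), Mmp8 (-4.92) and Cxcr2 (-2.53) were among those that fell. Of 16 monocyte, macrophage and dendritic markers 2 rose (Cx3cr1 by 2.02 and Siglech by 0.66) and 5 fell, F13a1 by 4.46 and Vcan by 3.49 among them (median 0.01), with a mean log2 level of 8.22 to 9.57 with TNF and 8.90 to 9.46 without on the arrays labelled mutant, and 8.22 to 8.34 and 8.74 to 9.16 in wild type. Among 11 mast cell, basophil and eosinophil markers 3 fell and 0 rose, among 7 erythroid markers 2 fell and 0 rose, among 8 megakaryocyte markers 1 rose and 2 fell, among 12 lymphoid markers 1 rose and 2 fell, and of 11 stromal and endothelial markers none passed. Of 9 measured stem and progenitor markers 1 rose, Procr (1.48). For each of these lists the shares over all genes were 5.81% that rose and 6.32% that fell. In RNA from a mixed population, more cells of a type and more RNA per cell cannot be told apart.

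The order of arrays within groups was set beside that of the myeloid markers, with no test. The share of all genes with a matching order was not taken, and orders of only 3 arrays can match by chance. Cybb and Cyba each ordered the 3 arrays of a group as the mean of the monocyte, macrophage and dendritic markers did in 3 of the 4 groups, all but the wild-type arrays with TNF, and as the granulocyte mean did in 2 of 4, both labelled mutant. The order matched the monocyte mean in 2 groups for Ncf4, 1 for Ncf1, 1 for Rac2 and 0 for Rac1, and the granulocyte mean in 1 group for Ncf4, 2 for Rac2 and 0 for Ncf1 and Rac1. On the treated arrays labelled mutant the monocyte mean was 8.94, 8.22 and 9.57 for replicates 1 to 3, beside Cybb at 11.65, 11.05 and 12.13. The part of marker levels in the spread of Cybb between replicates was not tested. Between treatments, the treated wild-type arrays had lower granulocyte and monocyte means and higher Cybb than every untreated array. On the arrays labelled mutant the treated granulocyte means were also lower, but the monocyte means overlapped, and treated replicate 3 had both the highest monocyte mean and the highest Cybb of all 12 arrays.

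**Figure D5:**
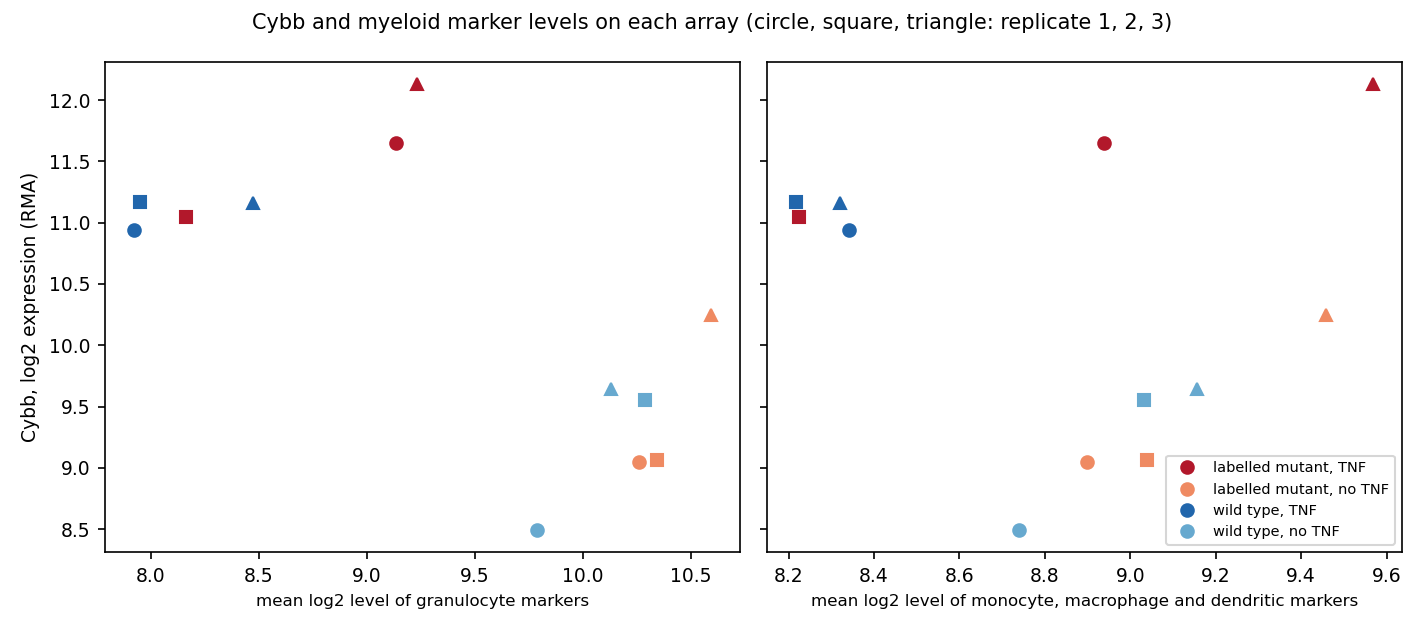
Cybb (y axis, log2) against the mean log2 level of 18 granulocyte markers (left) and of 16 monocyte, macrophage and dendritic markers (right) on each array, coloured by group. Every treated array lies above every untreated one on the Cybb axis, and the treated arrays lie at lower granulocyte levels.

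Profiles over all 12 arrays were compared by the root mean square difference between log2 values centred on each gene's mean. The nearest genes to Cybb were Saa3, an acute-phase serum amyloid gene (0.28), Klrd1, which encodes the lectin-like receptor CD94 (0.32), and the TNF receptor family gene Cd40 (0.35), beside a standard deviation of Cybb itself of 1.17. Saa3 rose by 2.34, Klrd1 by 1.73 and Cd40 by 1.97 with TNF averaged over genotype. Nearest to Cyba were Cfp, the properdin gene of the complement system (0.14), the aspartic protease gene Napsa (0.15) and Tifa, an adaptor of TRAF signalling (0.15), beside a standard deviation of 0.54. Cfp rose by 0.75, Napsa by 0.77 and Tifa by 0.88. The rises of these neighbours follow from how they were picked, since the same arrays gave the profiles, and are no separate result. The profiles of Ncf4, Ncf1, Rac1 and Rac2 were too flat to single out neighbours, with 494 genes within 0.15 of Ncf4, 3337 of Ncf1, 6825 of Rac1 and 1902 of Rac2, and standard deviations of 0.17, 0.11, 0.05 and 0.15. The 3 nearest were Spi1, Atox1 and Cst3 for Ncf4, Hmgb2, Adarb2 and Prc1 for Ncf1, Hnrnpd, Norad and Cnbp for Rac1, and Zdhhc21, Adamts4 and Ptgdr for Rac2.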

How the data were processed

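The authors deposited RMA values (robust multi-array average) of 12 arrays on a log2 scale, 1 per probe set. RMA is named in the submitters' processing notes without a version, and the range of the values, 2.14 to 14.94, gave the log base. Because RMA gives all arrays the same distribution, a shift of most genes at once would be hidden, and values near the floor are compressed. The number of arrays limits the precision.

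After leaving out 64 control probe sets, 34945 probe sets with 1 gene symbol gave 18193 genes, each represented by its probe set with the highest mean. Limma 3.58.1 in R 4.3.3 fitted a mean for each of the 4 groups, followed by 2-sided tests of 7 contrasts; p-values were adjusted over all genes by Benjamini and Hochberg, with a threshold of 0.05. The scripts were tested on simulated data. Members and gene lists were chosen with earlier results of these data known: 57 of 68 related genes and 92 of 107 markers were measured, and the others were not analysed here. Named were all members and their probe sets, Fancc, Xist, Eif2s3y, Kit and Cybc1, up to 4 called genes per related list with the largest change, and the 3 nearest profiles per member (genes named by a clone number skipped). Markers, Itgb2, Tlr4, Arhgdib, Spi1, Nox4, Duox1 and Duoxa2 were named after their values were seen.

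Replicate numbers were shared between groups. Deviations of same-numbered arrays from their group means correlated at -0.159 to 0.278 (over 0.1 in 7 of 18 pairs). For arrays of different groups and numbers the range was -0.331 to 0.181. The numbers were not taken to pair the arrays in the main fit, and a block by number was an alternative. Alternatives were a replicate block, a filter on dim genes (at least 3 arrays above 6.02, 11014 genes kept), the mean of probe sets, median centring, array weights, trended and robust moderation, cyclic loess, only the groups compared, every probe set, Xist and Eif2s3y covariates, and leaving out each array.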

Additional observations from a re-analysis of the deposited data

How the results depend on the processing

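TNF averaged over genotype raised 2 of 6 members under all 21 alternatives. Over all genes, between 664 (Xist and Eif2s3y covariates) and 1318 (array weights) rose in these fits, against 1057 in the main fit. The count of members called for TNF was 1 on the arrays labelled mutant when only the groups compared were fitted, and 0 in each genotype with the Xist and Eif2s3y covariates, where calls over all genes fell to 452 on the arrays labelled mutant and 410 in wild type, against 784 and 913. Leaving out an array gave 1 to 2 calls on the arrays labelled mutant and 0 to 2 in wild type, with 444 to 951 and 474 to 957 calls over all genes. Fitting only the groups compared gave 681 calls over all genes on the arrays labelled mutant and 523 in wild type. The covariates gave 1270 for the average over genotype, against 2207. Of 906 member values 838 kept their direction and side of the threshold, and 13 lost their call. Of the others, 0 reversed a call and 55 changed sign without passing either way. The cause of the lost calls was not tested, and fits without an array also had fewer arrays. With a replicate block the members called for TNF numbered 2 in each genotype and 2 on average, and the block changed no call of a member. Among all genes, the fit with this block called 2181 for the TNF average. It called 920 when wild-type cells were compared alone, and 790 for the labelled mutant comparison. In each genotype the SE of the TNF change fell from 0.39 to 0.30 for Cybb and from 0.18 to 0.13 for Cyba with the block. Centring arrays on their median split the calls for the TNF average into 852 higher and 1419 lower, against 1057 and 1150, and moved the median of all genes by -0.03. No genotype or interaction fit called a member under any alternative. A change at the Rac1 probe set near the floor could not be measured well.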

Other observations

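The Ncf1 probe set 1451767_at read 10.44, 10.47 and 10.58 with TNF on arrays labelled mutant, and 10.14, 10.37 and 10.05 with TNF in wild type, and its difference averaged over treatment was 0.21 (SE 0.07, limma adjusted p = 0.723 over all probe sets). The Cybb probe set 1422978_at read 9.49, 8.62 and 10.14 with TNF on arrays labelled mutant, and 7.93, 8.62 and 8.46 with TNF in wild type, so its lowest array labelled mutant and its highest wild-type array were level after rounding, with an average difference of 0.85 (SE 0.44, adjusted p = 0.834). The brightest Ncf1 and Cybb probe sets overlapped between genotypes at both treatments.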
